A study of Arabidopsis thaliana with 6 samples.

Results

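The 2 alleles of each gene were set against each other inside the same hybrid embryos of Arabidopsis thaliana. One allele came from the laboratory accession Col-0 and the other from Cvi-0, an accession from the Cape Verde Islands. The members were the genes with a mean of 10 or more allele reads per library, 6988 of the 23874 genes listed, of which 15828 had any allele read. An allele read is a sequencing read that overlaps a known sequence difference between the accessions and so shows which parent it was copied from. There were 6 poly(A) RNA libraries, each from a pool of 20 hand-dissected embryos. Embryos were taken at the 1-cell/2-cell stage 40 hours after pollination, at the 8-cell stage after 64 hours and at about the 32-cell stage after 78 hours, and at each stage from Col-0 x Cvi-0 and from Cvi-0 x Col-0 crosses, taken here to be written with the mother first. Each combination of stage and cross was 1 library with no replicate, all of them hybrids, so the 6 libraries served as repeats of the Col-0 to Cvi-0 contrast and the fit held library and parent of origin as terms. No pure Col-0 or Cvi-0 embryo was analysed here.

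Within a hybrid nucleus both alleles meet the same transcription factors and the same cell state. A lasting difference in RNA between them is therefore read as a difference in cis, one that lies in or near the gene itself and alters its transcription or the stability of its message. This reading does not cover RNA made before the alleles shared a nucleus, or RNA from maternal tissue. Such RNA was not told apart here from RNA made in the embryo. In plants, immune receptor genes and genes of defence chemistry are known for large differences between accessions. Genes of the basic cell machinery, such as ribosomal proteins and histones, come in families of near-equal copies.

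The libraries held 1233554 to 1723728 allele reads each, and 52.9% to 54.0% of them came from Col-0. Summed embryo markers, among them LEC1 and PDF1, stood at 767 to 3833 RPM, the reads of a gene scaled to the size of its library. Seed coat markers summed to 47.8 to 139 RPM and endosperm markers to 7.13 to 51.9 RPM. Of the 5 pollen markers 4 could be matched to a gene (LAT52 could not), and their sum was 101 RPM in 1-cell/2-cell embryos of Col-0 x Cvi-0 against 0.751 to 12.7 RPM in the other libraries; VGD1 and VGDH1 made up nearly all of it. Where the text speaks of called genes, it means an adjusted p under 0.05 in edgeR's quasi-likelihood test over all 6988 genes. The log2 ratio is that of Col-0 over Cvi-0 reads, so that positive values mean more RNA from the Col-0 allele. Values of the 6 libraries are given in order of stage, with Col-0 x Cvi-0 before Cvi-0 x Col-0.

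Of the 24 leading genes at which both alleles were read, 4 are shown first with the reference sequence before their annotated starts, because several variants of each agreed on the side. They were the 2 in each direction with the most variants that all lay on the called side, among those whose window met no other gene, and not those with the largest ratios. Each window has 250 bases of the Col-0 reference (RefSeq, TAIR10.1), written 5′ to 3′ on the strand of the gene. Capitals mark the letters TATAAA or CCAAT, or their reverse complements TTTATA and ATTGG, none of which overlapped. Of 23746 such windows in the genome, 46.1% held TATAAA on either strand and 46.9% held CCAAT on either strand, so a match is a common feature and no more than a description. The Cvi-0 letters of these windows were not used here.
Hsp70-15 (chr1:30062825-30063074, minus strand): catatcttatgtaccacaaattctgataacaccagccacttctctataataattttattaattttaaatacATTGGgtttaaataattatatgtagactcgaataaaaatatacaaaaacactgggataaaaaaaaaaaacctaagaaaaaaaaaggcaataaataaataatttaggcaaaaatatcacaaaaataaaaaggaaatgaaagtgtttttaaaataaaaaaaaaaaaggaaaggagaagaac
AT5G05060 (chr5:1495137-1495386, minus strand): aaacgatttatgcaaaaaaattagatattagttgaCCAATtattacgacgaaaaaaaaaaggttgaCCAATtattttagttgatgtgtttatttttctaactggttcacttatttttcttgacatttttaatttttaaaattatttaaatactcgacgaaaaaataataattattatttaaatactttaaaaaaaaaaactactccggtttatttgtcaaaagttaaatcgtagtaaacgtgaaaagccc
AT1G30720 (chr1:10897675-10897924, plus strand): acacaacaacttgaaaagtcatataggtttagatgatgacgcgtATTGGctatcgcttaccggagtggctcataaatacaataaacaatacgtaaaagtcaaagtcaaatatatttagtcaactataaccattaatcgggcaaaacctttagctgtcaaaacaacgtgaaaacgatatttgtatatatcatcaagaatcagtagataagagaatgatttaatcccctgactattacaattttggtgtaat
NAC019 (chr1:19698483-19698732, minus strand): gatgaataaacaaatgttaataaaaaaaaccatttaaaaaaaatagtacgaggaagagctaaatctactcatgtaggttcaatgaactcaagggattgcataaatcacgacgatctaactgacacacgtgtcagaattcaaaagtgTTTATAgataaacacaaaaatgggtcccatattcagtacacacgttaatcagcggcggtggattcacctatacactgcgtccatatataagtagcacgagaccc

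Hsp70-15, an Hsp70-type chaperone gene, was read almost only from Col-0. In the Col-0 x Cvi-0 crosses it had 508 Col-0 and 8 Cvi-0 reads at 1-cell/2-cell, 306 and 6 at 8-cell, and 108 and 3 at 32-cell. In the reciprocal crosses it had 492 and 3, 593 and 27, and 506 and 9. The Col-0 share thus lay at 95.6% to 99.4% in every library, whichever parent was the mother. Of its variants with 10 or more reads 8 of 8 lay on the Col-0 side, at Col-0 shares from 62.7% to 100%. The log2 ratio was 5.58 ± 0.27 (SE; edgeR adjusted p = 2.15e-08). AT5G05060, a gene of the cystatin superfamily of cysteine protease inhibitors, had 1078 Col-0 and 13 Cvi-0 reads over the 6 libraries, and 7 of 7 variants were on the Col-0 side. Its Col-0 share was 91.5% at 8-cell Col-0 x Cvi-0, where 9 of the 13 Cvi-0 reads fell, and the highest share was 100%.

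On the other side, AT1G30720, a berberine bridge enzyme-like gene of the FAD-binding family, had 14 Col-0 and 186 Cvi-0 reads, and NAC019, a NAC transcription factor gene known from stress responses, had 10 and 171. All 7 and all 5 of their deep variants lay on the Cvi-0 side. Both were read mainly at 1-cell/2-cell: Col-0 x Cvi-0 embryos gave 130 of the 186 Cvi-0 reads of AT1G30720 and 125 of the 171 of NAC019. The log2 ratio of AT1G30720 was -4.90 ± 0.75. Without those embryos it was -4.32 (edgeR adjusted p = 0.0389), without the 1-cell/2-cell embryos of the reciprocal cross -2.996 (edgeR adjusted p = 0.0912), and DESeq2 gave an adjusted p of 0.43, so the call rests on few libraries. NAC019, at -4.97 ± 0.82, was too shallow to be tested without the first of them. A gene of the protein kinase superfamily, AT1G67470, was seen throughout, with 153, 235, 61, 301, 106 and 221 Cvi-0 reads in the 6 libraries in order of stage, against 0, 1, 0, 12, 2 and 2 Col-0 reads. Its Col-0 share never passed 3.83%, and its log2 ratio was -6.42 ± 0.41 (edgeR adjusted p = 1.91e-07).

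**Figure D1:**
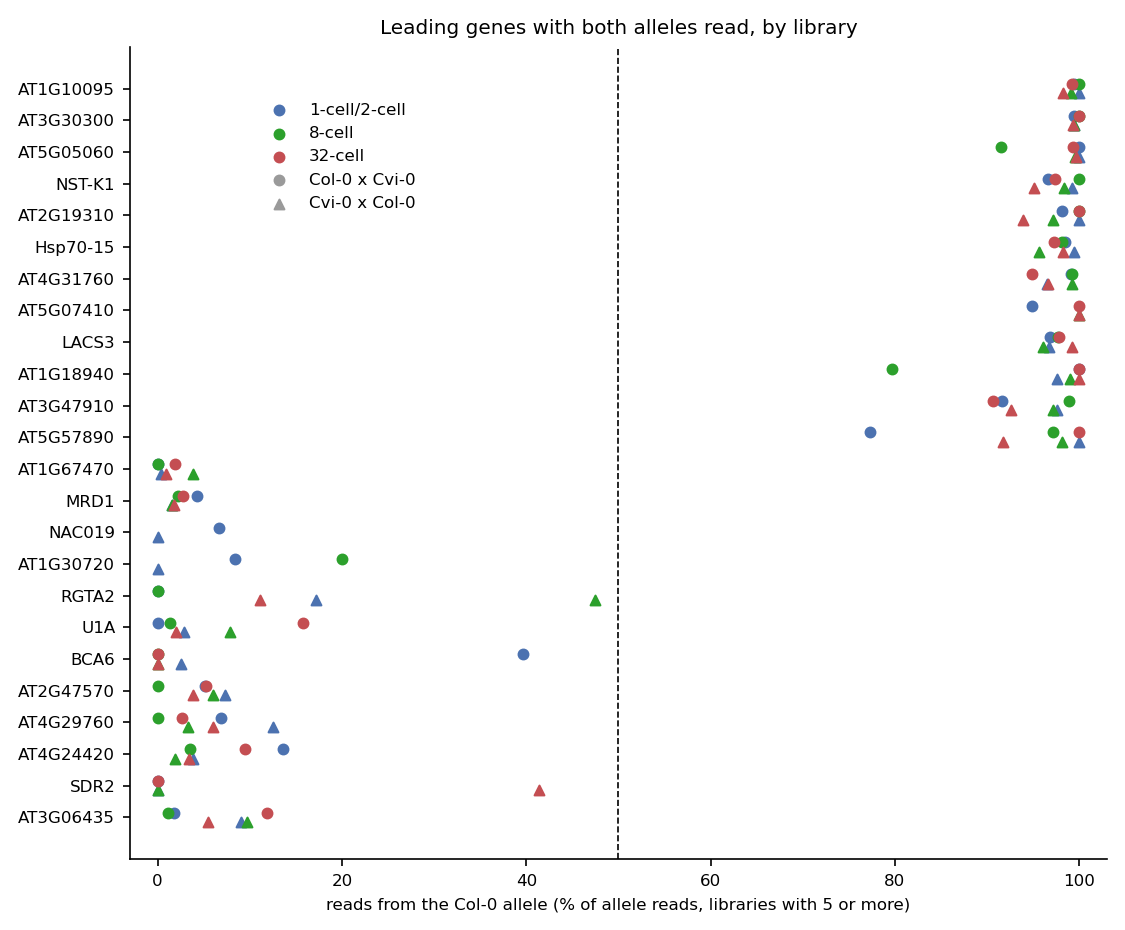
Share of allele reads from Col-0 (x axis, percent) in each library for the 24 leading genes with at least 10 reads from the lower allele, 12 in each direction; points stand for single libraries with 5 or more allele reads, coloured by stage and shaped by cross. All points of a gene lie on one side of the dashed 50% line because the genes were chosen that way; most sit near 0 or 100, while BCA6, RGTA2 and SDR2 each have 1 library closer to it, at 39.7, 47.5 and 41.4%.

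Altogether 1430 genes were called, 20.5% of those tested. The Col-0 allele was higher at 954 genes (13.7%) and the Cvi-0 allele at 476 (6.81%). At an unadjusted p under 0.05 there were 2238. Reads of both alleles were scaled by the same library total, which keeps the excess of Col-0 reads in the ratios: the median log2 ratio over all genes was 0.10. With TMM scaling, which centres the ratios, that median was -0.02, a shift of -0.12. The calls then numbered 794 (11.4%) on the Col-0 side and 653 (9.34%) on the Cvi-0 side, so the Col-0 side made up 54.9% of calls in place of 66.7%. Under both scalings 1270 genes were called in the same direction and 0 in opposite directions. The lean towards Col-0 therefore depends on the scaling, and counts of families are given under both.

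Most of the called differences were over 2-fold, at 937 genes, which is 13.4% of all genes tested. The size of calls fell with depth. With 60 to 119 allele reads all 150 calls were over 2-fold, with a median absolute log2 ratio of 3.67. With 3000 or more reads 66 of 251 calls were, with a median of 0.65. On the Col-0 side 178 were 8-fold or more and 91 under 1.5-fold; on the Cvi-0 side the figures were 81 and 70. The median absolute log2 ratio of called genes was 1.40 where Col-0 was higher and 1.17 where Cvi-0 was higher, against 0.47 over all genes tested. At 62 of the called genes no read of one allele was seen, 38 without Cvi-0 and 24 without Col-0 reads. At the other end, the 95% interval of the ratio lay within 2-fold either way at 2135 genes, 30.6% of those tested.

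**Figure D2:**
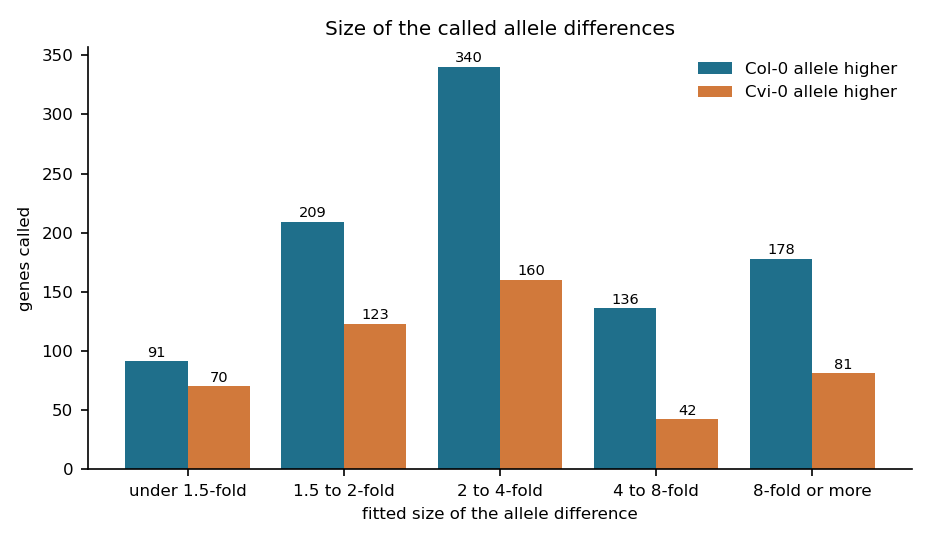
Number of called genes (y axis) by fitted size of the allele difference (x axis), with Col-0 higher in blue and Cvi-0 higher in orange. The 2 to 4-fold class is the fullest on both sides, with 340 and 160 genes.

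The same allele led in nearly every library. At 1248 of the 1430 called genes (87.3%) it was higher in every library with 5 or more allele reads of the gene. As a check on libraries that did not enter the call, genes were called from 2 stages and read in the third. Of the genes called without the 1-cell/2-cell libraries, 94.5% leaned the same way there (1039 of 1099 with 10 or more allele reads). The shares were 97.6% at 8-cell (868 of 889) and 97.3% at 32-cell (855 of 879). Genes that were not called leaned the same way at 63.6% to 66.9%.

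What could be called depended on depth and on the number of variants. Of genes with 60 to 119 allele reads over the 6 libraries 9.17% were called, and of those with 3000 or more 53.0%. The share both called and over 2-fold changed less with depth and stayed between 9.17% and 16.6% across the 6 depth classes. Genes with 1 listed variant were called at 12.01%, with 50 higher from Col-0 and 42 from Cvi-0. With 9 or more variants 29.97% were called, with 508 and 184. The lean towards Col-0 thus rose with the number of variants, from a median log2 ratio of -0.01 to 0.24. Reads had to match the Col-0 genome or a Cvi-0 version built from listed variants without a mismatch, per the series' design text, so that a read crossing an unlisted Cvi-0 difference matched neither. Its part in the lean was not tested. The share called was alike on the 5 chromosomes, from 18.8% on chromosome 3 to 22.5% on chromosome 2. Neighbouring genes up to 5000 bases apart that shared no variant were called at 22.6% next to a called gene and at 20.4% next to one that was not, over 3019 pairs. Of the 142 pairs with both called, 81 had the same allele higher.

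**Figure D3:**
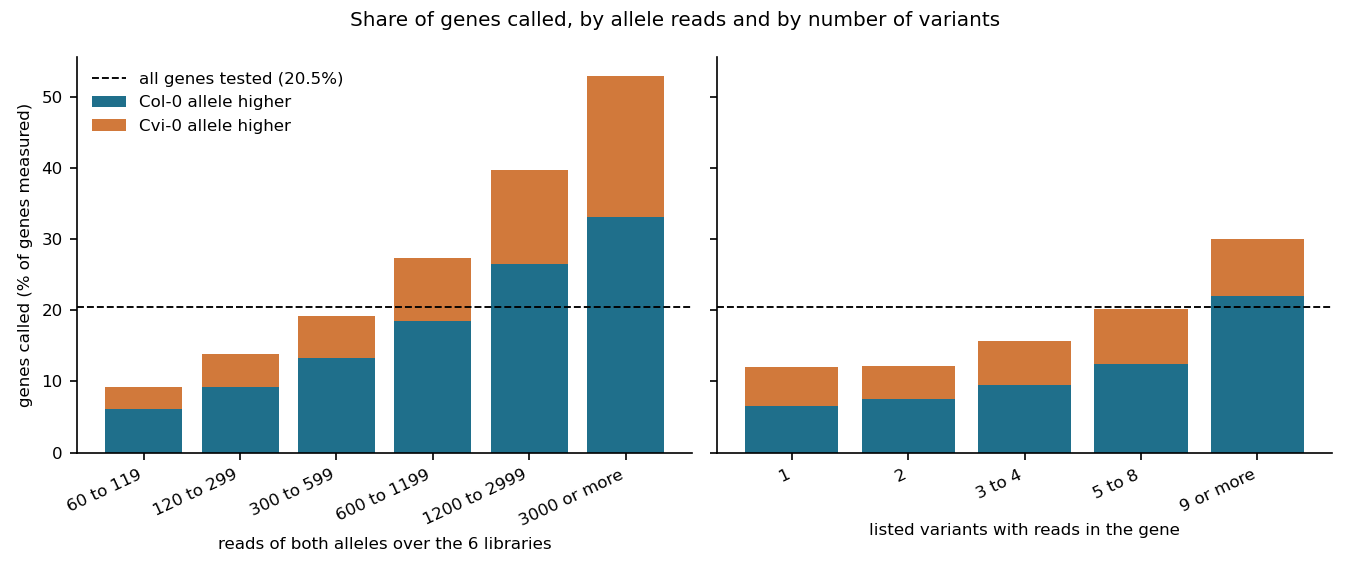
Percent of measured genes called (y axis), split by the higher allele, in classes of allele reads (left) and of listed variants with reads (right); the dashed line is the 20.5% of all genes tested. The share rises from 9.17% to 53.0% with reads and from 12.01% to 29.97% with variants.

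Genes were put into 52 families by product name and symbol, 46 of them with 10 or more measured genes. The share called was above the 20.5% of all genes in 20 of the 46. It was at least 1.5 times that in 5, in falling order NB-LRR disease resistance genes, histones, ribosomal proteins, protease inhibitors with defensins and thionins, and translation factors. No family was tested as a set, and these were singled out after their counts were seen. In 32 families more calls were higher from Col-0 and in 6 from Cvi-0; with TMM scaling the numbers were 22 and 17.

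**Figure D4:**
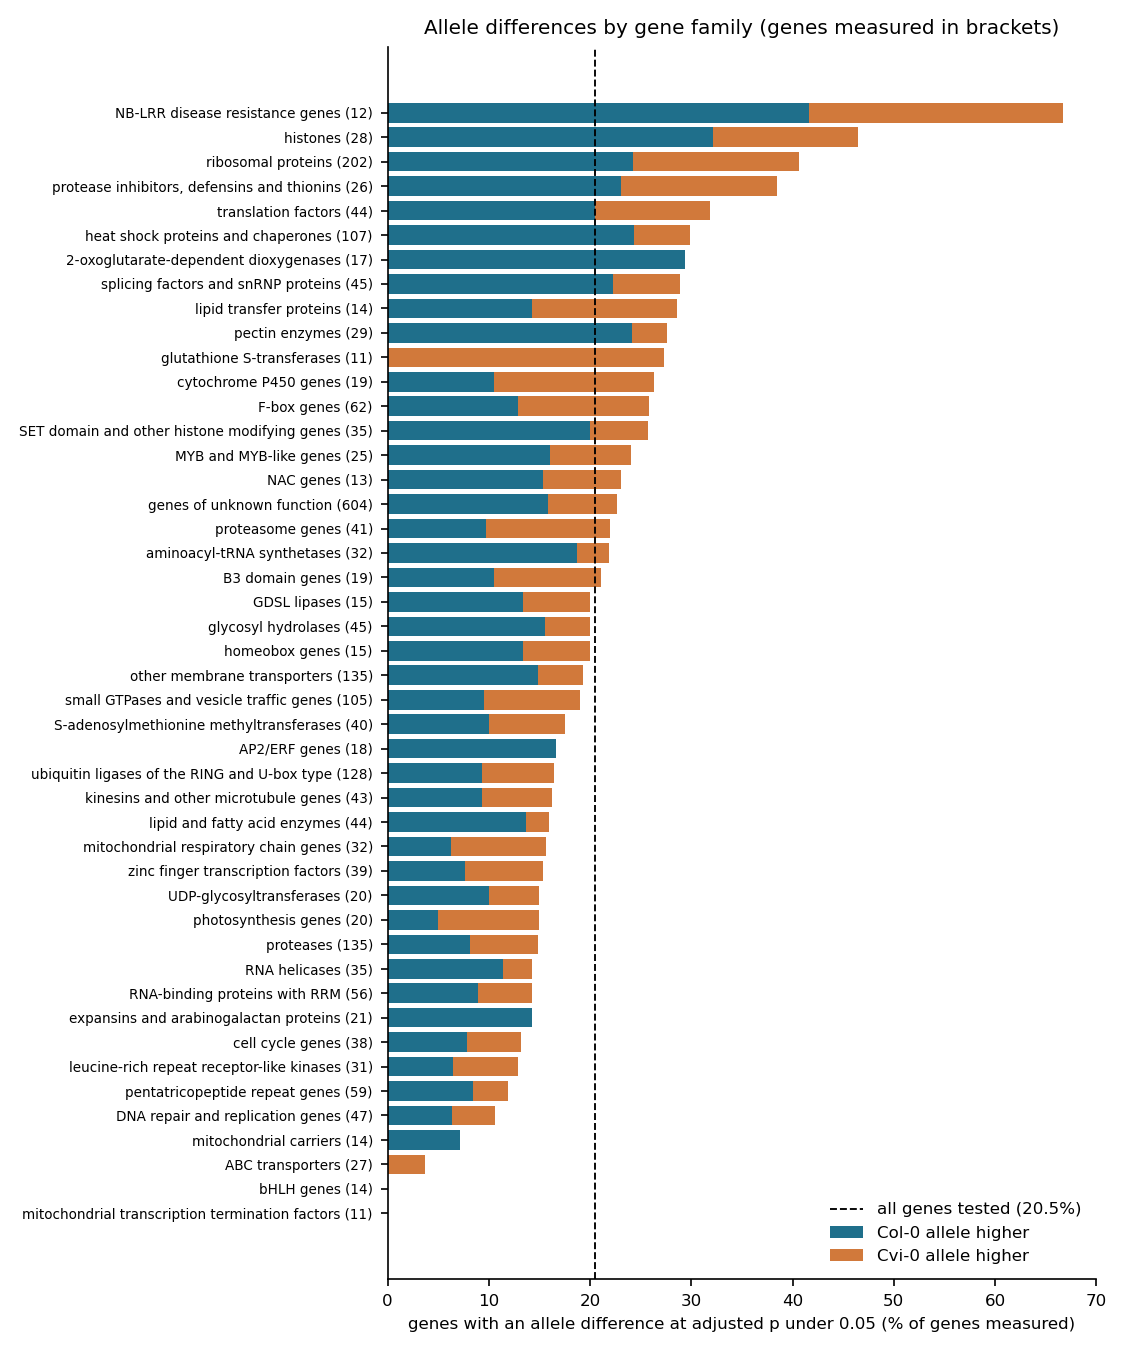
Percent of measured genes called (x axis) in each of the 46 families with 10 or more measured genes, whose number is in brackets, with Col-0 higher in blue and Cvi-0 higher in orange; the dashed line is the 20.5% of all genes tested. NB-LRR genes lead at 66.7%, and bHLH and mTERF genes have none called.

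NB-LRR genes code for intracellular receptors that detect pathogen effectors, and they had the highest share of calls and the highest median difference of the 46 families. Of 12 measured, 8 were called, 5 higher from Col-0 and 3 from Cvi-0, the same split under TMM scaling. Their median absolute log2 ratio was 2.28, against 0.47 over all genes. Among called members alone it was 2.99, below that of UDP-glycosyltransferases (3.48) and pectin enzymes (3.21). They also held many variants, with a median of 31.5 against 5; among all genes with 9 or more variants 29.97% were called, and among the 11 NB-LRR genes in that class 8. AT1G61300, of the LRR and NB-ARC type, was read from Cvi-0, with 3, 10, 8, 91, 92 and 93 Cvi-0 reads in the 6 libraries in order of stage against 0, 2, 0, 0, 2 and 1 from Col-0. All 15 of its variants with 10 or more reads were on the Cvi-0 side, and the log2 ratio was -5.53 ± 0.66 (edgeR adjusted p = 5.36e-05). AT1G61190, named alike and nearby in locus number, was also higher from Cvi-0 (log2 -2.91 ± 0.68; edgeR adjusted p = 0.00762), a call lost without 32-cell Col-0 x Cvi-0 embryos (edgeR adjusted p = 0.1).

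In contrast, AT1G66090, of the TIR-NBS class, was higher from Col-0. Its Col-0 reads in the same order were 192, 159, 71, 333, 116 and 250, its Cvi-0 reads 13, 0, 0, 4, 29 and 39, and the log2 ratio was 3.96 ± 0.53 (edgeR adjusted p = 0.000136). AT5G35450, of the CC-NBS-LRR class, had 96 Col-0 reads and 1 Cvi-0 read, a Col-0 share of 99.0% (exact 95% interval 94.4% to 99.97%). ADR1-L1, a helper receptor of the same immune system, was higher from Col-0 by 1.39 ± 0.30 on the log2 scale; it was picked from the called members after its values were seen. Without the 32-cell libraries 5 members were called in place of 8. Leucine-rich repeat receptor-like kinases had a smaller share of calls, 4 of 31 (12.9%), and a median absolute log2 ratio of 0.61. However, their median depth was 136 allele reads against 269 over all genes, and their median was 9 variants. Of the 25 kinases with under 600 reads 3 were called, against 13.65% of all genes that shallow. Of 4 measured receptor-like proteins 1 was called, with a median absolute log2 ratio of 1.33 and a median of 31 variants. Both sets were made by name and not by a role in immunity. Differences between these families and the NB-LRR genes were not tested.

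**Figure D5:**
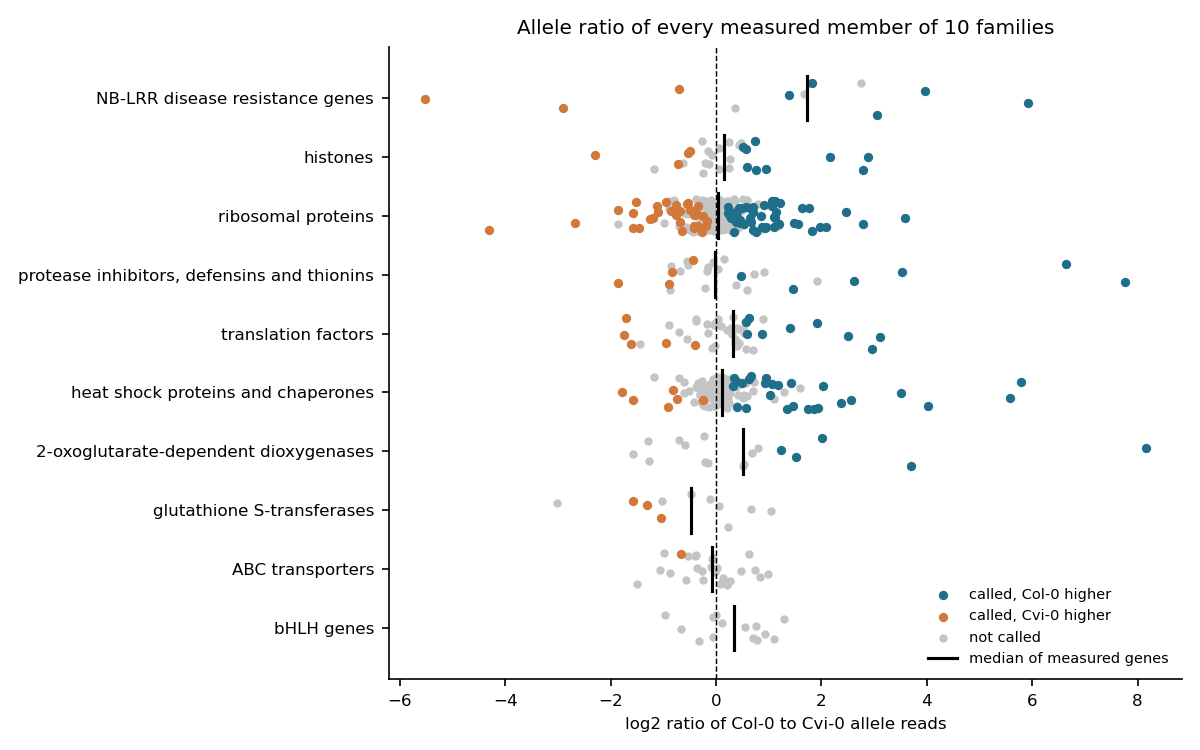
Log2 ratio of Col-0 to Cvi-0 reads (x axis) of every measured gene in 10 families, with called genes in blue (Col-0 higher) or orange (Cvi-0 higher), other genes in grey and a bar at the median. NB-LRR genes spread from -5.53 to 5.92, while the 202 ribosomal protein genes crowd around a median of 0.04 with called genes on both sides. Fitted ratios of genes with no read of one allele, such as AT2G25450 at 8.16, depend on the fit's prior count.

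Ribosomal protein genes build the subunits of the ribosome and were the largest of the 5 families. Of 202 measured, 82 were called (40.6%), 49 from Col-0 and 33 from Cvi-0. TMM scaling turned the balance to 39 and 49. Matching by product name also took in genes named for both L12 and the ClpS protease adaptor, and MEE5, counted among translation factors as well. The 202 genes were also deep, with a median of 3101 allele reads. Among members with 600 or more reads 48.4% were called, against 37.5% of all genes that deep, and among shallower members 8 of 49. Of all genes with 3000 or more reads 53.0% were called, which no ribosomal share given here passed. The ribosomal share in that deeper class was not counted. The median absolute log2 ratio of called members was 0.71, against 1.33 for all called genes, 0.88 for called genes with 600 or more reads and 0.65 for those with 3000 or more. The most unequal were AT1G80750 of the L30/L7 family (log2 3.58 ± 0.27, from 1605 reads against 138), AT4G34670 coding for S3Ae (2.78 ± 0.28) and, on the Cvi-0 side, AT2G47570 coding for L18 (-4.32 ± 0.35) and RPL12-A of the plastid ribosome (-2.68 ± 0.31). AT1G80750 and AT2G47570 each share a variant with another gene, so their counts are uncertain. For AT4G34670 the Col-0 share ran from 68.6% to 94.2% over the 6 libraries, and for RPL12-A from 6.45% to 18.2%.

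Ribosomal genes with the same product name were called on the same and on opposite sides. A name can cover different proteins, such as the acidic ribosomal proteins. Among the 49 product names shared by 2 or more measured genes, 15 had 2 or more called genes, and in 10 of these 1 gene was higher from Col-0 and another from Cvi-0. Whether this is more than the mix of Col-0 and Cvi-0 calls gives was not tested. With TMM scaling it was 12 of 19. The L27e family is an example, chosen after its values were seen: AT3G22230 was higher from Col-0 (log2 0.40 ± 0.08) and AT4G15000 from Cvi-0 (-1.47 ± 0.10), with every library on its own side in both. Translation factors gave 14 calls of 44 (31.8%), 9 from Col-0 and 5 from Cvi-0. Of the 18 with 600 or more reads 8 were called (44.4%), against 37.5% of all genes that deep. The match by name also took in TFIIS, a transcription elongation factor gene. AT2G18110, an EF1B elongation factor gene, had 4819 Col-0 and 616 Cvi-0 reads and a share of 84.7% to 91.8% in the 6 libraries (log2 2.96 ± 0.14; edgeR adjusted p = 1.81e-08).

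Histone genes, which package DNA and are needed in bulk when embryo cells divide, gave 13 calls of 28 (46.4%), 9 from Col-0 and 4 from Cvi-0, or 9 and 7 with TMM scaling. Their median depth was 3149.5 allele reads, and of the 22 with 600 or more 12 were called (54.5%). Of all genes with 600 or more reads 37.5% were called, and of those with 3000 or more 53.0%. The histone share was thus above that of its own class and near that of the deeper one. No histone share was counted for genes with 3000 or more reads. AT1G07660 stood out, with 832, 726, 978, 1270, 2383 and 1523 Cvi-0 reads in the 6 libraries in order of stage against 220, 227, 207, 224, 277 and 295 Col-0 reads. The Cvi-0 allele led in all of them, the Col-0 share falling between 10.4% and 23.8%, and the log2 ratio was -2.31 ± 0.15 (edgeR adjusted p = 2.62e-07). At 13 variants with 10 or more reads, 10 were on the Cvi-0 side. AT4G40040 had a Col-0 share of 83.6% to 98.2% (log2 2.79 ± 0.28). H2A and H2B genes were among the milder ones, such as HTB9 (0.57) and HTA9 (-0.53), both called; these were named after their values were seen.

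Genes that modify histones gave 9 calls of 35 (25.7%), 7 from Col-0 and 2 from Cvi-0. HAC1, a CBP-family histone acetyltransferase gene, had 106 Col-0 and 3 Cvi-0 reads (Col-0 share 97.2%, exact 95% interval 92.2% to 99.4%). Its relative HAC5 was higher from Cvi-0 (log2 -1.16 ± 0.35; edgeR adjusted p = 0.0314), a call that was lost without either 1-cell/2-cell library (edgeR adjusted p = 0.146 and 0.109). Leaving out one or the other 32-cell library also ended the call of HAC5 (edgeR adjusted p = 0.0776 and 0.0668).

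Heat shock proteins and chaperones, which help other proteins fold, were called mostly from Col-0, as were genes at large. There were 32 calls of 107 (29.9%), 26 from Col-0 and 6 from Cvi-0, and 21 and 9 with TMM scaling, next to 954 and 476 or 794 and 653 over all genes. Besides Hsp70-15, AT2G19310 of the HSP20 class was read 888 times from Col-0 and 18 times from Cvi-0, with 7 of 7 variants on the Col-0 side (log2 5.80 ± 0.47; edgeR adjusted p = 1.52e-06). Other HSP20-class genes went the other way: AT1G59860 had 651 Col-0 and 1942 Cvi-0 reads, all at 1 variant, and a Col-0 share of 20.4% to 29.9% in the 6 libraries. BOB1, a small chaperone gene needed for embryo development, was higher from Cvi-0 too (log2 -1.78 ± 0.46), though not past the threshold without 32-cell Cvi-0 x Col-0 embryos (edgeR adjusted p = 0.059). It had 60 Col-0 and 115 Cvi-0 reads in all. Of these, 47 and 48 came from 8-cell Cvi-0 x Col-0 embryos, where the alleles were near equal. The median ratio of the family was 0.10, the same as over all genes.

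Several genes of defence chemistry and small defence proteins had few or no reads of one allele. They were not alone in this, as 62 called genes over all those tested had no read of one allele. Whether RNA of the unread alleles was absent or only unmatched was not tested. Protease inhibitors, defensins and thionins gave 10 calls of 26 (38.5%), 6 from Col-0 and 4 from Cvi-0. AT5G32619, a defensin-like gene, had 168 Col-0 and 0 Cvi-0 reads, at least 56-fold higher from Col-0, taking 3 reads in the 6 libraries together as the least that would be seen, though at 1 variant and with a DESeq2 adjusted p of 0.137. The cystatin gene CYS1 was milder and higher from Cvi-0 (log2 -0.84 ± 0.15). All 5 called 2-oxoglutarate-dependent dioxygenase genes, of 17 measured, were higher from Col-0, and 4 remained on that side with TMM scaling, with 0 on the other. AT2G25450 led them with 51 and 238 Col-0 reads at 1-cell/2-cell and 6 in all later libraries, and 0 Cvi-0 reads, at least 98.3-fold; DESeq2 did not call it (adjusted p = 0.41). In the reverse direction, all 3 called glutathione S-transferase genes, of 11, were higher from Cvi-0 under both scalings: GSTT1 (log2 -1.32 ± 0.23) and GSTT3 (-1.57 ± 0.35), which have adjacent locus numbers, and GSTU5 (-1.04 ± 0.18).

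In the glucosinolate list, 5 genes were measured and 2 called, both higher from Cvi-0. The list was made by gene symbol and need not hold every gene of the pathway, so no side is given for the pathway. ESP, which steers glucosinolate breakdown towards nitriles, had 15, 247, 0, 132, 0 and 7 Cvi-0 reads in the 6 libraries in order of stage and 1 Col-0 read in all. Most came from crosses with a Cvi-0 mother, and the call was lost without 1-cell/2-cell Col-0 x Cvi-0 embryos (edgeR adjusted p = 1) and with DESeq2 (adjusted p = 0.341). MYB51, a regulator of indole glucosinolate synthesis, had 77 Cvi-0 and 0 Col-0 reads, at least 25.7-fold. Cytochrome P450 genes gave 5 calls of 19, among them CYP77A4, known for a role in embryo patterning, with a Col-0 share of 72.2% to 82.4% in the 6 libraries (log2 1.75 ± 0.15; edgeR adjusted p = 3.87e-06). CYP706A3 had 81 Cvi-0 and 0 Col-0 reads, at least 27-fold higher from Cvi-0, and was not called by DESeq2 (adjusted p = 0.252).

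Pectin enzymes, which remodel cell walls, gave 8 calls of 29 (27.6%), 7 from Col-0. In 4 of the called members, named after their values were seen, most Col-0 reads came from the library with the highest pollen markers. AT5G07410, a pectin lyase-like gene, had 205 of its 256 Col-0 reads in 1-cell/2-cell embryos of Col-0 x Cvi-0, where VGD1, itself a pollen marker and a called member, stood at 69.1 RPM against at most 9.17 RPM elsewhere. VGD1 had 200 of its 270 Col-0 reads there, and the pectin lyase-like genes AT3G14040 and AT5G07430 had 92 of 106 and 58 of 84. With the mother written first, the pollen parent of that library was Cvi-0, whereas AT5G07410 had 205 Col-0 and 11 Cvi-0 reads there. The source of the pollen markers and the part of pollen RNA in these calls were not tested. Without that library 7 of the 25 members that could be tested were called, and AT5G07410 kept a log2 ratio of 4.73 (edgeR adjusted p = 0.0191). AT5G48900 did not follow it, with 1, 6, 12, 15, 22 and 33 Col-0 reads in order of stage and 1 Cvi-0 read in all.

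F-box genes, which pick proteins for degradation, gave 16 calls of 62 (25.8%), 8 on each side. At 3 of those named by rule no read of the lower allele was seen: AT5G55440 with 215 Col-0 and 0 Cvi-0 reads, at least 71.7-fold (DESeq2 adjusted p = 0.138), AT4G14096 with 248 Col-0 and 0 Cvi-0 reads, at least 82.7-fold (DESeq2 adjusted p = 0.0761), and AT5G44220 with 112 Cvi-0 and 0 Col-0 reads, at least 37.3-fold. Splicing factors and snRNP proteins gave 13 of 45. Here the 2 genes for the LSM6 subunit leaned to opposite alleles: LSM6B was read 445 times from Col-0 and 8 times from Cvi-0 (log2 5.88 ± 0.59), LSM6A 958 and 1625 times (-0.90 ± 0.19). Of the 2 variants of LSM6B with 10 or more reads, 1 lay on the Cvi-0 side. The Col-0 share of LSM6A ran from 22.4% to 48.2%, below an equal share in every library. U1A, a splicing protein gene at a log2 ratio of -4.75, was read at 1 variant, which it shares with AT2G47570. The annotated spans of the 2 genes do not overlap. At 8-cell Col-0 x Cvi-0 U1A had 2 Col-0 and 151 Cvi-0 reads, against 0 and 67 for AT2G47570. How reads at the shared variant were divided was not tested.

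At the low end, none of 14 bHLH transcription factor genes was called and none of 11 genes for mitochondrial transcription termination factors (mTERF). ABC transporters gave 1 call of 27 (3.70%), ABCE2 at -0.67 ± 0.18, which was lost without either 8-cell library (edgeR adjusted p = 0.0654 and 0.0903) or without 32-cell Cvi-0 x Col-0 embryos (edgeR adjusted p = 0.066). Pentatricopeptide repeat genes, which edit and process organelle RNA, gave 7 of 59 (11.9%), and DNA repair and replication genes 5 of 47 (10.6%). Many of these families were shallow, with medians of 144 to 279 allele reads, and of all genes under 600 reads 13.65% were called. For bHLH genes the 95% interval lay within 2-fold at 4 of 14, so at the other 10 a 2-fold difference was within the interval. Cell cycle genes gave 5 calls of 38, with 1 extreme: CYCD4;1, a D-type cyclin gene, had 711 Col-0 and 6 Cvi-0 reads, with a Col-0 share of 97.9% to 100% (log2 6.73 ± 0.41; edgeR adjusted p = 1.23e-07). Of its 2 variants with 10 or more reads, 1 lay on the Cvi-0 side.

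Of 21 measured genes known for embryo patterning 3 were called (14.3%), none over 2-fold. ATML1, an epidermal identity gene, had a Col-0 share of 57.6% to 70.9% (log2 0.96 ± 0.12), and PLT1, a root stem cell regulator, one of 54.3% to 62.7% (0.57 ± 0.12). WOX2, which marks the apical embryo, was higher from Cvi-0 (-0.47 ± 0.15; edgeR adjusted p = 0.0496), with 1 library on the Col-0 side. The WOX2 call was lost without any one of the 8-cell and 32-cell libraries (edgeR adjusted p = 0.112 to 0.19). In the cytokinesis list 2 of 10 were called, both from Col-0: SYP111, the syntaxin of the cell plate (0.78 ± 0.14), and PLE, a microtubule-bundling protein gene (1.00 ± 0.24). PLE had 1 library on the Cvi-0 side, 1-cell/2-cell Col-0 x Cvi-0, with 30 Col-0 and 34 Cvi-0 reads. None of 6 polycomb genes and none of 12 flowering, photoreceptor and dormancy genes was called, although their median absolute log2 ratios of 0.63 and 0.50 were not below the 0.47 of all genes; with TMM scaling 1 of the latter was. VRN2, in both lists, had 433 Col-0 and 304 Cvi-0 reads (0.44 ± 0.20; edgeR adjusted p = 0.154).

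Among 20 measured genes of DNA methylation and silencing 6 were called, 3 on each side. The 3 VIM genes, whose proteins bind methylated DNA and help maintain the mark, split. VIM1 (log2 0.63 ± 0.09) and VIM2 (3.07 ± 0.56) were higher from Col-0, and VIM3 from Cvi-0 (-1.65 ± 0.50). VIM1 was the steadiest, with a Col-0 share of 59.3% to 62.3% in the 6 libraries. AGO4, the effector of RNA-directed DNA methylation, was higher from Cvi-0 in every library, with 4203 Col-0 and 7128 Cvi-0 reads (-0.78 ± 0.12; edgeR adjusted p = 0.000408). The maintenance methyltransferase gene MET1 (-1.09 ± 0.35) and the demethylase gene DML2 (1.66 ± 0.52) each had 1 library on the other side. These 2 calls and that of VIM3 were borderline: leaving out single libraries raised the edgeR adjusted p to as much as 0.115 for MET1 (lost without any library but 1-cell/2-cell Col-0 x Cvi-0), 0.152 for DML2 (without any but 32-cell Col-0 x Cvi-0) and 0.118 for VIM3 (without either 1-cell/2-cell library, the 8-cell library with a Cvi-0 mother or the 32-cell one with a Col-0 mother). DML2 was also lost with TMM scaling (edgeR adjusted p = 0.0536), and MET1 with DESeq2 (adjusted p = 0.0521). In the ethylene list 3 of 11 were called. ACS2, which makes the ethylene precursor ACC, was read 4677 times from Col-0 and 5 times from Cvi-0 (log2 10.67 ± 0.36; edgeR adjusted p = 9.77e-09). Its relative ACS6 was at 1.17 ± 0.38 (edgeR adjusted p = 0.0456), with 1 library on the Cvi-0 side. The call of ACS6 was lost with TMM scaling (edgeR adjusted p = 0.0707), with DESeq2 (adjusted p = 0.0534) and without any single library but 32-cell Cvi-0 x Col-0 (edgeR adjusted p = 0.0522 to 0.157). The third was EBF1, an F-box gene that targets EIN3, with a Col-0 share of 21.9% to 42.0% (-1.35 ± 0.18; edgeR adjusted p = 0.000135). At its deepest variant alone the ratio of EBF1 was -0.48 (edgeR adjusted p = 0.152).

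Variants within a gene mostly told the same story, although they share reads and are not replicates. Among called genes with 2 or more variants of at least 10 reads, 82.6% of 8114 variants lay on the side of the gene's call, and in 53.9% of 1213 genes all of them did. For genes not called, 65.8% of variants lay on the side of the gene's ratio. For called genes over 2-fold the shares were 88.8% and 67.1%. Of the genes that were not called, all variants lay on one side in 30.5%. Of the called genes, 117 share a variant with another gene.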

How the data were processed

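Allele reads were compared in 6 poly(A) RNA libraries, 1 per stage and cross. Per the labels' protocols, RNA of pooled embryos was linearly amplified and sequenced with strand kept. Per the series' design text, the authors mapped reads with Bowtie to TAIR10 and to a Cvi-0 version of it made from listed variants, kept perfect and unique matches, and summed the variants of a transcript into the deposited counts of Col-0 and Cvi-0 reads. The authors' deposited RPM values divide the reads of a gene by all matched reads; they were used for marker genes only. Another 36 columns were not used.

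The 12 allele columns were fitted with edgeR 4.0.16 (quasi-likelihood F test, R 4.3.3) with library, parent of origin and accession as terms, 4 residual degrees of freedom and the same library total for both alleles. P-values were adjusted by Benjamini-Hochberg over 6988 genes. With 1 library per group, p-values measure the spread between libraries of different stages and crosses; no molecular identifiers are stated, so exact intervals and floors cover counting error only. On simulated counts for 6844 genes, 42.9% of 2-fold and 97% of 4-fold changes were recovered with 2 false calls. Families were set by product name and symbol, and their patterns were corrected by product name after counts had been seen. Some members still matched by letters alone. The 128 genes of the RING and U-box family held TBL genes such as TBL7, which are not ubiquitin ligases. Named genes were the 12 largest per direction with at least 10 reads of the lower allele, up to 2 per direction in each family of 10 or more, and called list members, or the 2 deepest of a list with none. Members and lists were chosen with earlier results of these data known. DESeq2 1.42.0, other scalings, filters and left-out libraries were tried.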

Additional observations from a re-analysis of the deposited data

Results flagged for a closer look

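Of 18 leading genes with enough reads in all 6 libraries, 3 had 1 library far from the other 5. The nominal rate of about 1 in 20 does not hold for them, because several of their ratios come from counts of 0. The libraries differ in stage and cross and are not replicates. The values are log2 ratios after adding 0.5 reads to each allele. For AT5G05060 the ratio was 3.3594 in 8-cell Col-0 x Cvi-0 embryos and 6.86 to 7.95 in the others. For BCA6, a beta carbonic anhydrase gene, it was -0.5944 in 1-cell/2-cell Col-0 x Cvi-0 embryos, where 25 of its 26 Col-0 reads fell, and -5.98 to -4.72 in the others. For AT2G47570, which shares a variant with U1A, it was -7.0768 in 8-cell Col-0 x Cvi-0 embryos, with 0 Col-0 and 67 Cvi-0 reads. In the others it was -4.43 to -3.59.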

How the results depend on the processing

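Against a difference of 1.5-fold in place of any difference, 506 genes were called higher from Col-0 and 181 from Cvi-0, and against 2-fold 326 and 108. Cvi-0 calls numbered 268 without both 8-cell libraries and 288 without both 32-cell libraries, and 306 to 404 when 1 library was left out. TMM scaling moved the median log2 ratio of all genes to -0.0173, ABC transporters to 2 calls and mitochondrial carriers to 0. DESeq2 gave 2 ABC transporters, 5 glycosyl hydrolases and 3 2-oxoglutarate-dependent dioxygenases. A mean of at least 20 reads left 3 MYB genes, 2 ABC transporters and 5 pectin enzymes.

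Without both 8-cell libraries the called members were 52 ribosomal proteins, 15 membrane transporters, 13 RING and U-box ligases, 10 F-box genes, 10 small GTPase and vesicle genes, 9 proteases, 5 protease inhibitors, 5 pectin enzymes, 4 proteasome genes, 4 methyltransferases, 3 each of RNA helicases, cell cycle genes, kinesins, glycosyl hydrolases and dioxygenases, 2 each of receptor-like kinases, P450, pentatricopeptide, MYB and respiratory chain genes, 1 each of DNA repair, homeobox and photosynthesis genes, and 0 AP2/ERF genes, ABC transporters and mitochondrial carriers. Without both 32-cell libraries they were 16 membrane transporters, 13 small GTPase and vesicle genes, 12 RING and U-box ligases, 11 proteases, 9 F-box genes, 8 translation factors, 6 protease inhibitors, 5 each of NB-LRR, RRM and glycosyl hydrolase genes, 4 kinesins, 3 each of pentatricopeptide genes and methyltransferases, 2 each of receptor-like kinases, DNA repair and cell cycle genes, 1 photosynthesis gene and 0 ABC transporters. Without both 1-cell/2-cell libraries they were 15 membrane transporters, 13 proteases, 5 expansins and arabinogalactan proteins, 3 each of pentatricopeptide, cell cycle and ABC transporter genes, 2 dioxygenases, 1 each of receptor-like kinases, UDP-glycosyltransferases, DNA repair and AP2/ERF genes, and 0 mitochondrial carriers. Leaving out 1-cell/2-cell Col-0 x Cvi-0 alone, an alternative chosen after seeing the pollen markers, gave 4 pentatricopeptide genes, 3 ABC transporters, 2 receptor-like kinases, 1 UDP-glycosyltransferase, 1 AP2/ERF gene and 0 mitochondrial carriers. Fewer libraries also mean fewer degrees of freedom; other causes were not tested.

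Of the values of 173 named genes under 20 settings, 2884 kept direction and call, 414 kept the direction but lost the call, and 1 changed direction: LTP3 was -0.2483 with the deepest variant only. The 2 alleles were paired within each library by the library term in these fits; the labels carry no replicate numbers to pair libraries by. Depth limits the shallow genes: with 60 to 119 allele reads, the 95% interval lay within 2-fold at 0.489% of genes, against 76.4% with 3000 or more.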
